A study of Mus musculus with 26 samples.

Results

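The genes followed here start, brake or arrest the cell cycle, and their levels were read in the livers of mice that lack a clock gene. They were *Cdkn1a*, *Wee1*, *Ccnd1*, *Ccne1*, *Ccne2*, *Myc*, *Mdm2*, *Gadd45a*, *Gadd45b* and *Gadd45g*, chosen by name, and all 10 were among the 22322 gene symbols of the RNA-seq tables. The values are RPKM, which divides the reads of a transcript by its length and by the depth of sequencing, and each gene was represented by the best expressed of its transcripts, 21 transcripts in all. The Bmal1 experiment held 12 livers, 3 at each of CT0 and CT12 from liver-specific Bmal1 knockout mice and 3 at each time from wild-type control mice. The Nr1d1 experiment held 8 livers, 2 at each time from mice labelled as Nr1d1 knockout and 2 at each time from wild-type controls. All mice were 8 weeks old. The controls were of the C57BL/6 strain, and for the knockouts the strain label names only the genotype. The mice had lived for 1 week in 12 h of light and 12 h of dark with free access to food, and then for 2 days in constant darkness. CT0 marks the hour of lights-on in the earlier schedule, and CT12 lies 12 h later. The sources used here do not give the driver of the liver-specific deletion, the deleted exons, or whether controls carried a floxed allele.

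BMAL1 (gene symbol *Arntl*) is the activator of the circadian clock, and with CLOCK it binds E-box sequences. REV-ERBα, the product of *Nr1d1*, is a repressor that closes a loop by holding *Arntl* down. Progress through the cell cycle is driven by cyclins and cyclin-dependent kinases (CDKs). D-type cyclins act in early G1, E-type cyclins take the cell into S phase, and WEE1 holds CDK1 inactive until the cell may enter mitosis. p21, the product of *Cdkn1a*, inhibits CDKs and is a classical target of p53, as are *Mdm2*, which encodes the ligase that removes p53, and *Gadd45a*. *Wee1* is a textbook clock output in mouse liver, and *Cdkn1a* is known there as a target of REV-ERBα. Most hepatocytes of an adult liver are quiescent, so transcripts of these genes do not by themselves report division.

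RefSeq promoter windows, from 250 bases before to 50 bases after a start site, were at hand for 6 of the 10 genes, in 7 windows of build GRCm38.p6. They were searched on both strands for the E-box CACGTG, the REV-ERB element TAGGTCA, the D-box TTATGTAA and the p53 decamer by its consensus. Among 32851 windows of the same length, 7.15% held the E-box, 2.61% the REV-ERB element, 0.938% the D-box and 8.36% the p53 decamer. The windows of the 3 p53 target genes are shown because these genes share a regulator in textbook accounts and behaved differently in the livers. Capitals mark the p53 decamers, and each window reads 5′ to 3′ on the strand of its gene, in the order chr17:29090729-29091028 (plus strand), chr17:29093519-29093818 (plus strand), chr10:117710709-117711008 (minus strand) and chr6:67037358-67037657 (minus strand).
Cdkn1a, upstream start: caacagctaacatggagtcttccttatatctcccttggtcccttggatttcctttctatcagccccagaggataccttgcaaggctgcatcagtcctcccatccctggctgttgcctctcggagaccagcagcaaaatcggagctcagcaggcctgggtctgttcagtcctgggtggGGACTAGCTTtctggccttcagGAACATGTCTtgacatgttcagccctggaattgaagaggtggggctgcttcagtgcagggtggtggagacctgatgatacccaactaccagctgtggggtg
Cdkn1a, downstream start: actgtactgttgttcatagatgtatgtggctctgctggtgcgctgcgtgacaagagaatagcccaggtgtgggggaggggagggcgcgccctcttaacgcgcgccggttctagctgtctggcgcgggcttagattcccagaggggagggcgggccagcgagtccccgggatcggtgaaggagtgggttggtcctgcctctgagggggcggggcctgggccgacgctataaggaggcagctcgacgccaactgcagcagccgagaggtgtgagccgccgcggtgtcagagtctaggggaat
Mdm2: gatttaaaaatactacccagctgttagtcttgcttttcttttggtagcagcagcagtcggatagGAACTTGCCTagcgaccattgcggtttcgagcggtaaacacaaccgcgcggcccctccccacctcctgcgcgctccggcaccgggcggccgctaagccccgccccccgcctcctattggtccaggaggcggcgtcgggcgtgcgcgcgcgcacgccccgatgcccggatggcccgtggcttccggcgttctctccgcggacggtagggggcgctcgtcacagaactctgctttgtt
Gadd45a: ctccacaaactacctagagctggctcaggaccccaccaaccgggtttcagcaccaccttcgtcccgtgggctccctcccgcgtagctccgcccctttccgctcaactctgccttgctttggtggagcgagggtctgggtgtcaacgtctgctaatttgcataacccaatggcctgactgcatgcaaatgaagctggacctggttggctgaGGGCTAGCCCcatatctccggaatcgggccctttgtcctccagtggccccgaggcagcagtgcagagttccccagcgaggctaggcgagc

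The upstream *Cdkn1a* window held a pair of p53 decamers, at positions -73 and -51 from the start site, and the downstream *Cdkn1a* window held none of the 4 motifs. *Mdm2* held 1 decamer at -186 and *Gadd45a* 1 at -40. The E-box was found at -185 in the window of *Gadd45b* on chromosome 10 and at -142 in that of *Gadd45g* on chromosome 13, and in no window of the other 4 genes. The window of *Ccne1* held none of the 4 motifs. No window of these genes held TAGGTCA or TTATGTAA. A match is a string of letters, and neither a match nor its absence was set against binding.

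Summed over the genes whose reads could be recovered from the RPKM steps, the Bmal1 libraries held 4.38 M to 7.28 M reads (M, in units of 1e6), up to a factor common to the libraries for each gene. Replicate 1 of the Nr1d1 experiment held 5.65 M to 8.20 M and replicate 2, the only paired-end one in the labels, 39.98 M to 62.57 M. The reads of replicate 2 may also be off by a factor of their own, so the 2 sets of sums are not compared. The sums leave out genes whose reads were not recovered, and the search had an upper limit, so very abundant genes can be missing. They are not the depth of a library and are not compared between experiments. *Cdkn1a* rested on 274 reads at 1.87 RPKM in replicate 1 of the Nr1d1 controls at CT0. In replicate 1 of the Bmal1 controls at CT0 it rested on 89 reads at 2.47 RPKM. RPKM sums were 588418 to 875424 in replicate 1 and 2099302 to 2211054 in replicate 2, so Nr1d1 levels are compared within a replicate. In the Bmal1 livers a value of a member rested on 1 to 946 reads, with *Ccne1* at 1 to 33 reads and *Gadd45b* at 4 to 24 reads as the thinnest. Hepatocyte markers were abundant in every library, with *Alb* at 14012 to 37868 RPKM in the Bmal1 experiment. No source says that the replicates are more than separate samples, so the p-values measure the spread between these samples.

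The targeted genes were read first. *Arntl* had 5.91, 5.73 and 7.45 RPKM in Bmal1 knockout livers at CT0, against 16.3, 15.7 and 15.7 RPKM in controls. At CT12, when the gene is low in controls, it had 4.37, 3.59 and 4.01 RPKM in knockout livers and 1.26, 0.680 and 1.21 RPKM in controls. *Nr1d1* went against the label of its experiment, with 6.10 and 32.9 RPKM in the livers labelled Nr1d1 knockout at CT0 (replicates 1 and 2) and 0.374 and 22.0 RPKM in controls. At CT12 it had 11.1 and 28.4 RPKM in the livers labelled knockout and 3.45 and 33.4 RPKM in controls. A value over the whole transcript does not show the loss of some exons, so these levels do not check the deleted part. *Arntl* itself was 3.21 ± 0.31 log2 units higher in the livers labelled Nr1d1 knockout at CT12 (adjusted p = 0.0395 by limma, 2 livers a group).

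*Cdkn1a* was the member that moved farthest. In the Bmal1 experiment at CT12 it had 12.8, 10.2 and 14.3 RPKM in knockout livers, against 0.227, 0.606 and 1.52 RPKM in controls. These values rested on 353, 259 and 373 reads in knockout livers and on 7, 17 and 39 reads in controls, and every knockout liver stood far above every control. On the scale of log2(RPKM + 0.5), used for all differences here, it rose by 3.45 ± 0.41 (SE, n = 3 each, adjusted p = 0.000212 by limma over all genes). That is 10.9-fold in RPKM + 0.5, which is less than the fold in RPKM. Of the 11439 genes tested in this comparison 9.68% were called, and among the 10 members 2 were called. At CT0 the groups overlapped, with 4.71, 1.54 and 1.32 RPKM in knockout livers and 2.47, 1.32 and 1.80 RPKM in controls. The difference at CT0 was 0.22 ± 0.41, with a 95% interval from -0.68 to 1.11.

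The effect of the Bmal1 knockout on *Cdkn1a* differed between the times. It was 3.23 ± 0.58 log2 units larger at CT12 than at CT0 (adjusted p = 0.0188 by limma). Of all genes 1.31% were called in this interaction, and 2 of the 10 members were. The p rose to 0.0578 without replicate 3 of the knockout livers at CT12, to 0.0557 without replicate 1 and to 0.0503 without replicate 3 of the controls at CT0. Within the knockout livers *Cdkn1a* was higher at CT12 than at CT0 by 2.26 ± 0.41 (adjusted p = 0.0214 by limma), the sole member called in a comparison with 1.9% of all genes called. That call was lost without replicate 3 of the knockout livers at CT0 (adjusted p = 0.0817), or without replicate 1 (0.0749) or 3 (0.0548) of those at CT12, and when the fit held the knockout livers alone (0.0617). In controls *Cdkn1a* differed by -0.98 ± 0.41 between CT12 and CT0 (adjusted p = 0.151 by limma).

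**Figure D1:**
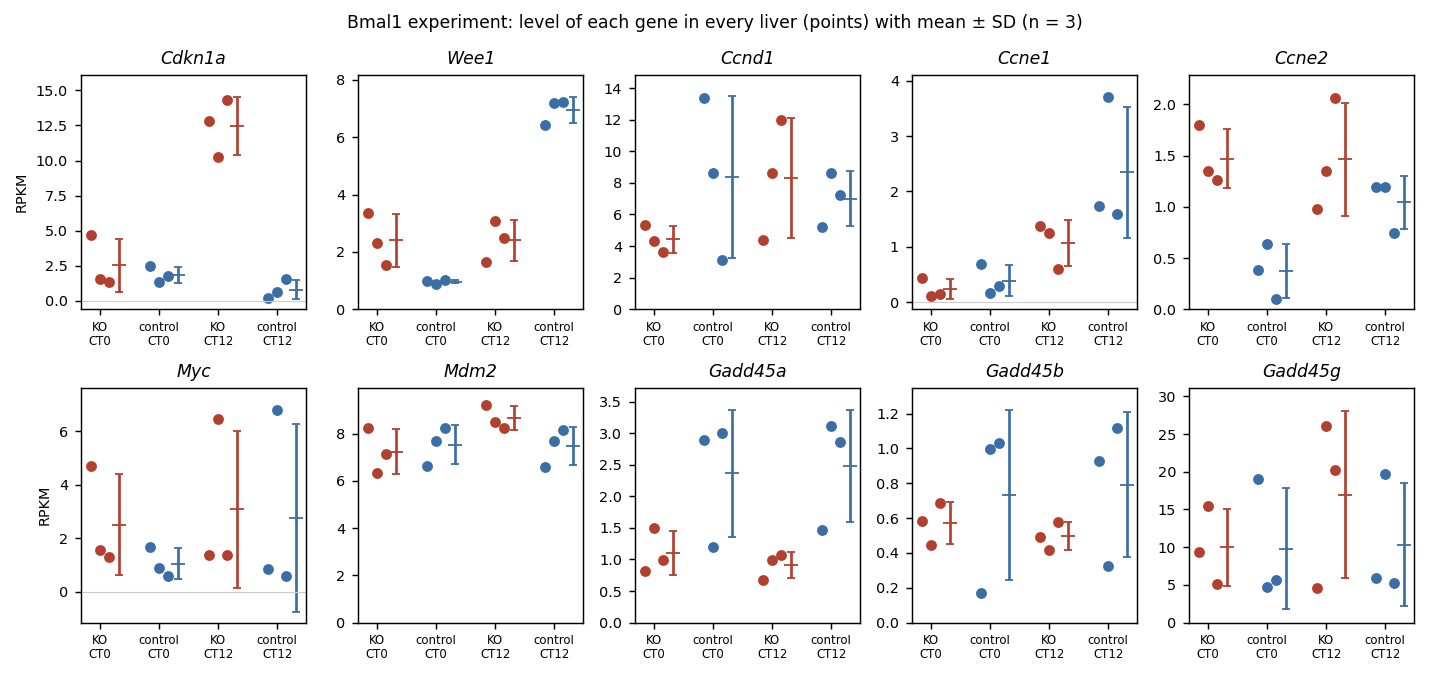
Level of each gene in every liver of the Bmal1 experiment, in RPKM on a linear axis of its own range per gene, with knockout livers (KO, red) left of controls (blue) at each time; bars give the mean and SD of 3 livers. *Cdkn1a* sits between 10.2 and 14.3 RPKM in the 3 knockout livers at CT12 and at or under 4.71 RPKM in the other 9, and *Wee1* sits between 6.42 and 7.22 RPKM in controls at CT12 and at or under 3.35 RPKM elsewhere.

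In the livers labelled Nr1d1 knockout *Cdkn1a* had 9.09 and 14.8 RPKM at CT12, against 0.394 and 0.883 RPKM in controls. Both replicates gave nearly the same difference, 3.42 and 3.46 log2 units. The fitted difference was 3.44 ± 0.65 with a 95% interval from 1.93 to 4.96, and it was not called (adjusted p = 0.272 by limma, n = 2 each). Only 0.0393% of the 12738 genes tested were called in this comparison, and 0 of the 9 members tested were. At an unadjusted p under 0.05 by limma stood 4 members, beside 4.55% of all genes. With edgeR on recovered reads 0 members were called, beside 13 of 13910 genes. The fit to the CT12 livers alone, with the replicate as a block, can hardly estimate a gene's own spread. It leans largely on the spread of other genes. The adjusted p was 0.00523 when the fit held the CT12 livers alone, 0.0252 without replicate 1 and 0.0243 without replicate 2 of the livers labelled knockout at CT0. Those CT0 livers stood far apart, at 0.531 and 12.2 RPKM, against 1.87 and 4.38 RPKM in controls. The CT0 difference accordingly was -1.20 in replicate 1 and 1.38 in replicate 2. *Nr1d1* itself was lower in the liver labelled knockout only in replicate 2 at CT12 (28.4 against 33.4 RPKM). A value over the whole transcript does not check the deleted part. At CT12 *Arntl* was 3.21 ± 0.31 log2 units higher in the livers labelled knockout (adjusted p = 0.0395 by limma). The direction of the *Cdkn1a* difference is given by the labels, and the genotype was not tested here.

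Other cell types could also carry *Cdkn1a*, and in bulk liver fewer cells of a type and less RNA per cell cannot be told apart. At CT12 the summed RPKM of 9 neutrophil markers was 18.7 to 47.6 in Bmal1 knockout livers and 6.27 to 8.92 in controls, and 2 of the 8 tested rose (*S100a8* and *S100a9*). At CT0 that sum was 106 to 230 in the knockout livers and 32.8 to 116 in controls, and 0 of 8 were called. The 7 cholangiocyte markers summed to 88.4 to 124 RPKM in knockout livers and 27.2 to 50.5 RPKM in controls at CT12, with 2 of 4 tested higher. Their sum also stood apart at CT0, at 93.6 to 153 RPKM in knockout livers and 49.3 to 65.2 RPKM in controls, with *Spp1* higher (1 of 4 tested). The 7 erythroid markers summed to 218 to 269 RPKM in knockout livers and 102 to 180 RPKM in controls at CT12, with *Hbb-b2* higher (1 of 5 tested) and a list median of 0.93. The erythroid sums overlapped at CT0, and 0 of 5 were called. Of 9 hepatocyte markers tested at CT12, *Fgb* rose by 0.88 ± 0.19 and *Alb* fell by 1.05 ± 0.14, and the list median was 0.10, against 0.09 over all genes. *Alb* was 14012 to 16366 RPKM in knockout livers and 26609 to 34269 RPKM in controls at CT12. It was also lower in knockout livers at CT0, by a difference of -0.93 ± 0.14 (adjusted p = 0.00709 by limma), the 1 of 9 hepatocyte markers called. None of the 9 Kupffer cell, 9 endothelial, 10 stellate cell and 2 lymphocyte markers tested was called at either time between genotypes. No neutrophil, cholangiocyte, erythroid, hepatocyte or Kupffer cell marker stayed under 0.05 RPKM in every library, and the part of other cell types in the results was not tested.

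*Wee1* moved in the opposite direction at CT12, and its difference between the times seen in controls was near 0 in knockout livers. At CT12 it had 1.64, 3.07 and 2.49 RPKM in Bmal1 knockout livers, against 6.42, 7.19 and 7.22 RPKM in controls. The groups stood apart, and it fell by 1.39 ± 0.22 in knockout livers (adjusted p = 0.00204 by limma). At CT0 the order was turned round, with 3.35, 2.32 and 1.53 RPKM in knockout livers and 0.981, 0.894 and 1.01 RPKM in controls. This difference of 0.94 ± 0.22 missed the threshold (adjusted p = 0.061 by limma), and it passed under 5 of the alternatives tried, among them edgeR on recovered reads (adjusted p = 0.0207) and the fits without replicate 3 of the knockout livers at CT0 (0.0266) or replicate 1 of those at CT12 (0.0426). The difference between knockout and control changed by -2.33 ± 0.32 log2 units at CT12 relative to CT0 (interaction, adjusted p = 0.00361 by limma).

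In control livers *Wee1* was higher at CT12 than at CT0 by 2.35 ± 0.22 (adjusted p = 5.38e-05 by limma), a 5.09-fold difference in RPKM + 0.5. In this comparison 10.8% of all genes were called and 2 of the 10 members. In Bmal1 knockout livers the difference between CT12 and CT0 was 0.02 ± 0.22, with a 95% interval from -0.47 to 0.51. The flat level of the knockout livers, 1.53 to 3.35 RPKM over both times, lay between the CT0 and CT12 levels of the controls. The genes whose levels followed *Wee1* most closely over the 12 Bmal1 libraries were the clock gene *Per3* (Pearson r = 0.97), *Nmrk1* (0.96) and the clock output *Tef* (0.95). These correlations describe libraries that share 4 groups, and they carry no test.

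The controls of the Nr1d1 experiment also had more *Wee1* at CT12. They had 5.62 and 21.4 RPKM at CT12 against 0.705 and 2.82 RPKM at CT0, and within each replicate the difference was 2.34 and 2.72 log2 units. It rose by 2.53 ± 0.25 (adjusted p = 0.00696 by limma), in a comparison with 0.353% of all genes called and 1 of 9 members. The call was lost when any of the 4 control livers was left out (adjusted p 0.0567 to 0.0789), without a filter on low values (0.119) and without the replicate as a block (1.00 when rounded). In the livers labelled Nr1d1 knockout *Wee1* had 2.78 and 14.0 RPKM at CT12 and 0.956 and 3.12 RPKM at CT0. That difference, 1.59 ± 0.25, was not called (adjusted p = 0.176 by limma), and 0.055% of all genes were. At CT12 the livers labelled knockout were lower than controls in both replicates, by differences of -0.90 and -0.59, and the fitted -0.75 ± 0.25 was not called (adjusted p = 0.884 by limma).

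**Figure D2:**
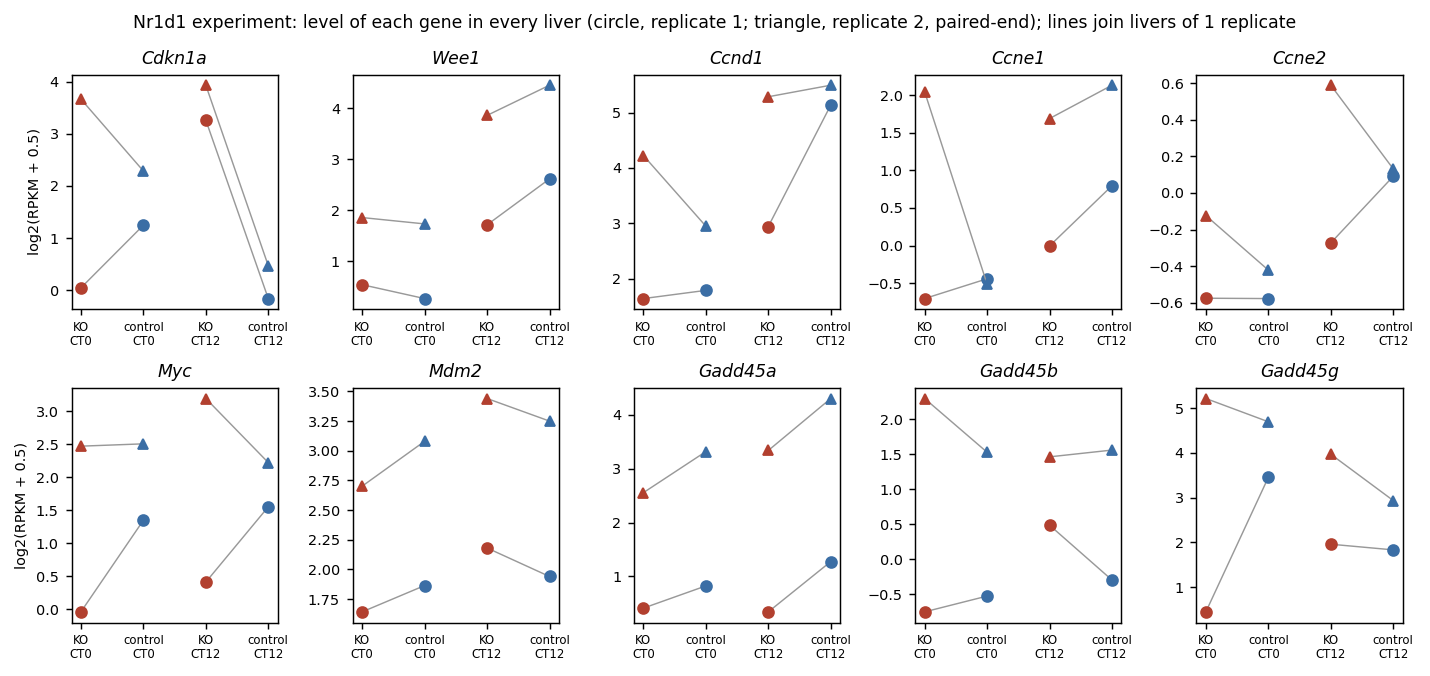
Level of each gene in every liver of the Nr1d1 experiment as log2(RPKM + 0.5), with livers labelled knockout (KO, red) left of controls (blue) at each time, circles for replicate 1, triangles for the paired-end replicate 2, and lines joining the livers of 1 replicate at 1 time. The lines of *Cdkn1a* at CT12 run parallel, with differences of 3.42 and 3.46 between livers labelled knockout and controls, while those at CT0 cross in direction, with -1.20 and 1.38.

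Of the cyclins, *Ccne1* changed with time in control livers and *Ccne2* with genotype at CT0. *Ccne1*, which encodes cyclin E1, had 1.73, 3.70 and 1.59 RPKM at CT12 in the controls of the Bmal1 experiment, against 0.696, 0.173 and 0.292 RPKM at CT0. It rose by 1.65 ± 0.32 (adjusted p = 0.00695 by limma), and the 2 groups did not overlap although their reads were only 13 to 33 at CT12 and 2 to 8 at CT0. In Bmal1 knockout livers it had 1.37, 1.24 and 0.602 RPKM at CT12 and 0.441, 0.116 and 0.143 RPKM at CT0. The difference there was 1.09 ± 0.32 (adjusted p = 0.101 by limma), and the interaction with genotype was -0.56 ± 0.45, with an interval from -1.54 to 0.42. At CT12 the 3 knockout livers were below the 3 controls, by a difference of -0.82 ± 0.32 that was not called (adjusted p = 0.138 by limma).

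In the controls of the Nr1d1 experiment *Ccne1* had 1.24 and 3.89 RPKM at CT12 and 0.236 and 0.201 RPKM at CT0, a difference of 1.94 ± 0.55 that was not called (adjusted p = 0.372 by limma). One liver labelled Nr1d1 knockout stood apart at CT0. Replicate 2 had 3.63 RPKM and replicate 1 had 0.113 RPKM, so the difference from control was 2.56 in replicate 2 and -0.26 in replicate 1. The same replicate 2 liver was also above its control in *Cdkn1a* (1.38 log2 units), *Ccnd1* (1.28), *Gadd45b* (0.77), *Gadd45g* (0.52), *Ccne2* (0.30) and *Wee1* (0.12). It was below its control in *Gadd45a* (-0.76), *Mdm2* (-0.38) and *Myc* (-0.04). These values come from 1 liver and are not independent observations.

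*Ccne2*, which encodes cyclin E2, was the one member called between genotypes at CT0. It had 1.80, 1.35 and 1.26 RPKM in Bmal1 knockout livers, against 0.382, 0.633 and 0.102 RPKM in controls, on 42 to 78 reads and 5 to 35 reads. Every knockout liver was above every control, and the rise was 1.21 ± 0.26 (adjusted p = 0.0398 by limma), where 1.62% of all genes and 1 of the 10 members were called. The call held in 11 of 22 alternatives. It was lost with the replicate as a block (adjusted p = 0.0626), without a filter on low values (0.0733) and with the CT0 livers alone (0.0964). It was also lost without replicate 1, 2 or 3 of the knockout livers at CT0, replicate 2 of those at CT12, replicate 1 or 3 of the controls at CT0, or replicate 1 or 2 of those at CT12, with adjusted p of 0.0532 to 0.139 over these. The size of the rise stayed between 0.86 and 1.94 throughout.

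At CT12 *Ccne2* had 0.978, 1.35 and 2.06 RPKM in knockout livers and 1.19, 1.19 and 0.744 RPKM in controls, so the groups overlapped. The difference at CT12 was 0.32 ± 0.26 (adjusted p = 0.497 by limma), and the interaction of -0.89 ± 0.37 was not called (adjusted p = 0.359 by limma). Between the times *Ccne2* differed by 0.86 ± 0.26 in controls (adjusted p = 0.0543 by limma, called under 7 alternatives, among them the fits without replicate 1 or 3 of the knockout livers at CT12 or replicate 2 of the controls at CT0) and by -0.03 ± 0.26 in knockout livers. In the Nr1d1 experiment it lay between 0.170 and 1.00 RPKM, under the minimum mean of 0.5 RPKM, and was not tested.

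*Ccnd1*, which encodes cyclin D1, answers growth signals. In the Bmal1 experiment it had 5.33, 4.34 and 3.64 RPKM in knockout livers at CT0 and 13.4, 8.60 and 3.13 RPKM in controls. Its CT12 levels were 4.39, 8.62 and 12.0 RPKM in knockout livers and 5.19, 8.61 and 7.24 RPKM in controls. The groups overlapped at both times, and the differences of -0.66 ± 0.43 at CT0 and 0.16 ± 0.43 at CT12 were not called (adjusted p = 0.563 and 0.872 by limma). In the controls of the Nr1d1 experiment the level was 34.7 and 44.7 RPKM at CT12 and 2.95 and 7.22 RPKM at CT0. Both replicates were far higher at CT12, by 3.35 and 2.55 log2 units, and the fitted 2.95 ± 0.49 missed the threshold (adjusted p = 0.0718 by limma). It passed with edgeR on recovered reads (adjusted p = 0.0322), with the control livers alone (0.000661), without replicate 1 or 2 of the livers labelled knockout at CT12 (0.0290 and 0.0266), and without replicate 2 of the controls at CT12 (0.0336). The fit to the control livers alone can hardly estimate a gene's own spread and leans largely on that of other genes. The controls of the Bmal1 experiment, of the same strain, age and times, differed by -0.07 ± 0.43 between CT12 and CT0. At CT12 the livers labelled Nr1d1 knockout had 7.18 and 38.6 RPKM, so that replicate 1 lay under its control (a difference of -2.20) and replicate 2 near it (-0.21).

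**Figure D3:**
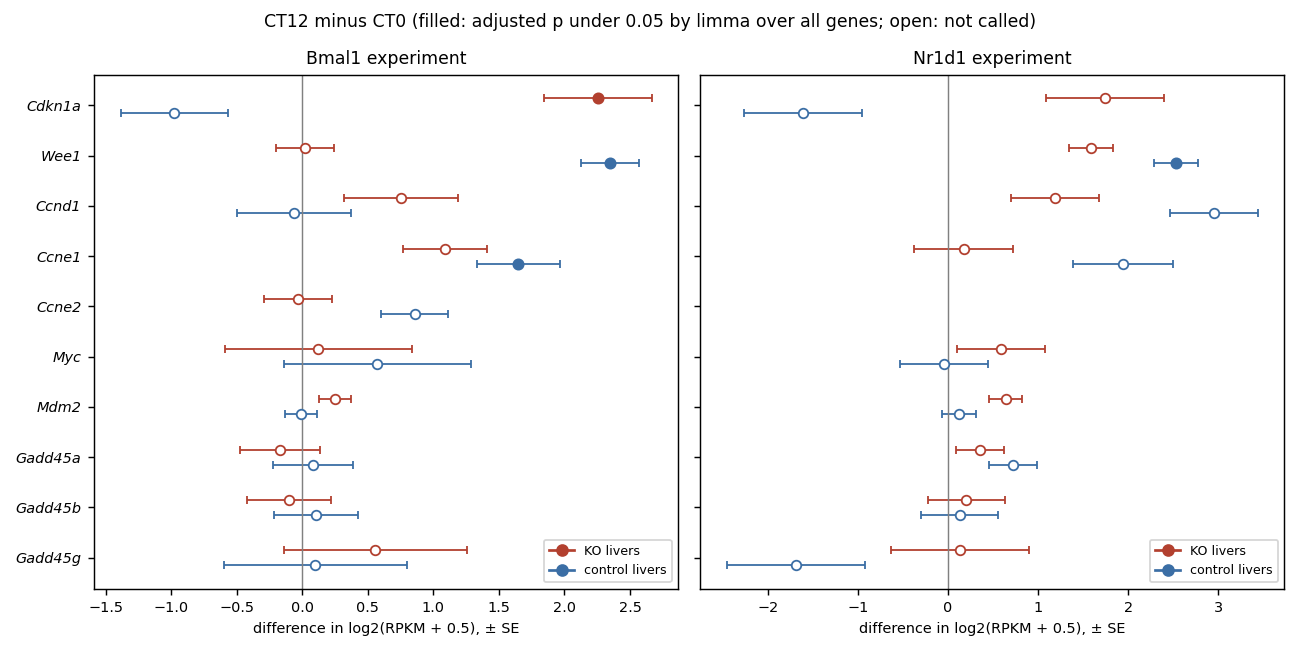
Difference between CT12 and CT0 in log2(RPKM + 0.5) with its SE for each gene, in knockout livers (KO, red) and controls (blue), for the Bmal1 experiment (left) and the Nr1d1 experiment (right); filled points passed an adjusted p under 0.05 by limma. In controls *Wee1* lies at 2.35 and 2.53 in the 2 experiments, and in Bmal1 knockout livers at 0.02, while *Cdkn1a* lies at 2.26 in Bmal1 knockout livers and at -0.98 in their controls.

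*Myc*, which encodes a transcription factor that drives growth, varied from liver to liver within its groups. It had 4.68, 1.54 and 1.29 RPKM in Bmal1 knockout livers at CT0 and 1.69, 0.866 and 0.585 RPKM in controls. At CT12 it had 1.37, 6.47 and 1.37 RPKM in knockout livers and 0.851, 6.81 and 0.573 RPKM in controls. A single high liver stood in 3 of the 4 groups. The SE of its differences was 0.71, against a median of 0.15 over all genes, and 99.7% of genes had a smaller one. *Myc* was called in none of the comparisons, and its difference at CT12 was 0.40 with an interval from -1.16 to 1.96. In the Nr1d1 experiment it had 0.828 and 8.63 RPKM at CT12 in the livers labelled knockout and 2.43 and 4.16 RPKM in controls, with differences of -1.14 and 0.97 in the 2 replicates.

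*Mdm2* was the steadiest member. It had 8.26, 6.33 and 7.15 RPKM in Bmal1 knockout livers at CT0 and 6.64, 7.70 and 8.26 RPKM in controls. Its CT12 levels were 9.24, 8.49 and 8.25 RPKM in knockout livers and 6.59, 7.68 and 8.14 RPKM in controls. The knockout livers at CT12 all lay above the controls, by 0.20 ± 0.12 log2 units with an interval from -0.06 to 0.47, and the difference was not called (adjusted p = 0.347 by limma). In the livers labelled Nr1d1 knockout at CT12 it had 4.03 and 10.4 RPKM, against 3.34 and 9.01 RPKM in controls, a difference of 0.22 ± 0.19. The upper bound of 0.47 in the Bmal1 experiment lies well under the lower bound of 2.55 for *Cdkn1a*. Over the 12 Bmal1 libraries the log2 levels of the 2 genes had a Pearson r of 0.67, given as a description.

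The GADD45 proteins are stress sensors that bind the p38 and JNK kinase cascade and hold back CDK1. *Gadd45a* was the one among them with a lower value in knockout livers in both experiments and at both times. It had 0.680, 0.988 and 1.08 RPKM in Bmal1 knockout livers at CT12, against 1.47, 3.12 and 2.87 RPKM in controls, without overlap, on 12 to 18 reads and 29 to 56 reads. The difference of -1.04 ± 0.30 just missed the threshold (adjusted p = 0.051 by limma) and passed under 8 alternatives, among them TMM scaling (0.0437), quantile normalization (0.0383), edgeR on recovered reads (0.0349) and the fits without replicate 2 of the controls at CT0 (0.0226) or replicate 1 of the controls at CT12 (0.0253). At CT0 it had 0.823, 1.49 and 0.999 RPKM in knockout livers and 2.90, 1.20 and 3.0 RPKM in controls. That difference was -0.79 ± 0.30 (adjusted p = 0.259 by limma).

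In the livers labelled Nr1d1 knockout *Gadd45a* had 0.766 and 9.63 RPKM at CT12, against 1.92 and 19.3 RPKM in controls. Within each replicate the difference was -0.94 and -0.97, and the fitted -0.95 ± 0.26 was not called (adjusted p = 0.75 by limma). At CT0 it had 0.829 and 5.38 RPKM, against 1.27 and 9.49 RPKM in controls, with -0.41 and -0.76 within the replicates and -0.59 ± 0.26 in the fit (adjusted p = 0.873 by limma). At CT0 no gene of this experiment was called (0 of 12738, with 575 at an unadjusted p under 0.05 and 4 called by edgeR). No member was either, and 0 of 9 were at an unadjusted p under 0.05.

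*Gadd45b* was low in the Bmal1 experiment, with 0.583, 0.444 and 0.689 RPKM in knockout livers at CT0 and 0.167, 0.997 and 1.03 RPKM in controls. Its CT12 levels were 0.493, 0.418 and 0.578 RPKM in knockout livers and 0.930, 0.323 and 1.12 RPKM in controls. Each of the 4 groups overlapped its counterpart, and the differences of -0.11 ± 0.32 and -0.32 ± 0.32 were not called (adjusted p = 0.928 and 0.604 by limma). *Gadd45g* was the most abundant member by mean RPKM in all 4 groups of the Bmal1 experiment. By median it lay under *Ccnd1* and *Mdm2* in the controls at both times. It had 9.33, 15.4 and 5.13 RPKM in knockout livers at CT0 and 19.0, 4.66 and 5.64 RPKM in controls. At CT12 it had 4.60, 26.0 and 20.3 RPKM in knockout livers and 5.96, 19.8 and 5.29 RPKM in controls. The spread within groups exceeded the differences between genotypes, with 0.63 ± 0.70 at CT12 (adjusted p = 0.644 by limma).

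Among the livers of the Nr1d1 experiment *Gadd45g* had 0.866 and 36.7 RPKM at CT0 in those labelled knockout and 10.5 and 25.4 RPKM in controls, so the difference was -3.0 in replicate 1 and 0.52 in replicate 2. In controls it was lower at CT12 than at CT0 in both replicates, by differences of -1.62 and -1.76. The fitted -1.69 ± 0.77 was not called (adjusted p = 0.635 by limma), except with the control livers alone (0.00973). That fit leans largely on the spread of other genes. *Gadd45b* had 0.0950 and 4.41 RPKM at CT0 in the livers labelled knockout and 0.196 and 2.39 RPKM in controls.

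**Figure D4:**
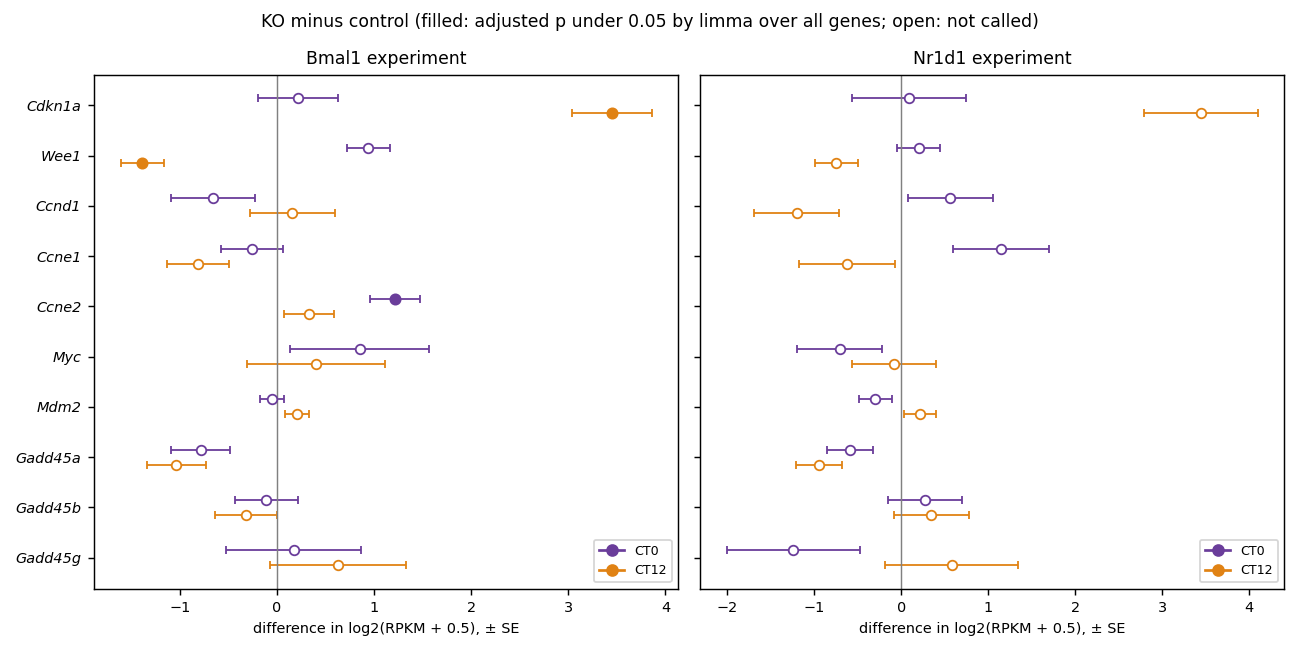
Difference between knockout and control in log2(RPKM + 0.5) with its SE for each gene at CT0 (purple) and CT12 (orange), for the Bmal1 experiment (left) and the experiment labelled Nr1d1 (right, where *Ccne2* was not tested); filled points passed an adjusted p under 0.05 by limma. At CT12 *Cdkn1a* lies at 3.45 and 3.44, and *Gadd45a* lies left of 0 at both times in both experiments.

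Relatives of these genes in 7 lists were called at CT12 about as often as genes in general, 10 of 93 tested (10.8%) against 9.68% over all genes. Of 16 other G1 cyclins, CDKs and pocket proteins tested in the Bmal1 experiment at CT12, 1 rose in knockout livers, *Cdk6* by 0.58 ± 0.14. The list's median was 0.14, against 0.09 over all genes. None of the 3 other CDK inhibitors tested was called, and their median was 0.03. Of 22 other p53 target genes 2 rose, *Ddit4* by 1.25 ± 0.33 and the exonuclease gene *Aen* by 0.50 ± 0.14, and *Perp*, which encodes a membrane protein, fell by 0.33 ± 0.09. The median of that list was 0.08. *Ddit4* encodes an inhibitor of mTORC1 that also answers hypoxia and glucocorticoids.

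Of 17 genes of S phase and mitosis, *Ccnf* (cyclin F) rose by 0.83 ± 0.23 and the thymidine kinase gene *Tk1* fell by 1.02 ± 0.17, with a list median of 0.26. None of 16 DNA damage checkpoint genes and none of 9 genes of the MYC network was called. Among 10 stress MAP kinase genes, whose products include the partners of GADD45 proteins, 4 fell in knockout livers, with *Map2k6* at -1.34 ± 0.22, *Map2k3* at -0.51 ± 0.10, *Map3k5* at -0.67 ± 0.17 and *Mapk14*, which encodes p38α, at -0.32 ± 0.09. The other 6 left the median at 0.01. *Map2k3* and *Map2k6* also differed in the interaction of genotype and time (-0.69 ± 0.14 and -1.44 ± 0.31, adjusted p = 0.0336 and 0.0478 by limma).

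None of 14 immediate-early genes was called between genotypes at CT12. Of 17 glucocorticoid and fasting genes 4 rose and 3 fell. The cyclin G2 gene *Ccng2*, a FOXO target that slows the cell cycle, rose by 1.14 ± 0.17, *Pdk4* by 1.53 ± 0.26 and *Irs2* by 1.33 ± 0.24, while *Foxo3* fell by 0.88 ± 0.18. At CT0 the calls in these 9 lists were *Perp*, which fell by 0.61 ± 0.09, and *Cpt1a*, which fell by 0.70 ± 0.15 in knockout livers. The genes of S phase and mitosis had 0 of 17 called at CT0, with a median of 0.32 against 0.01 over all genes.

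**Figure D5:**
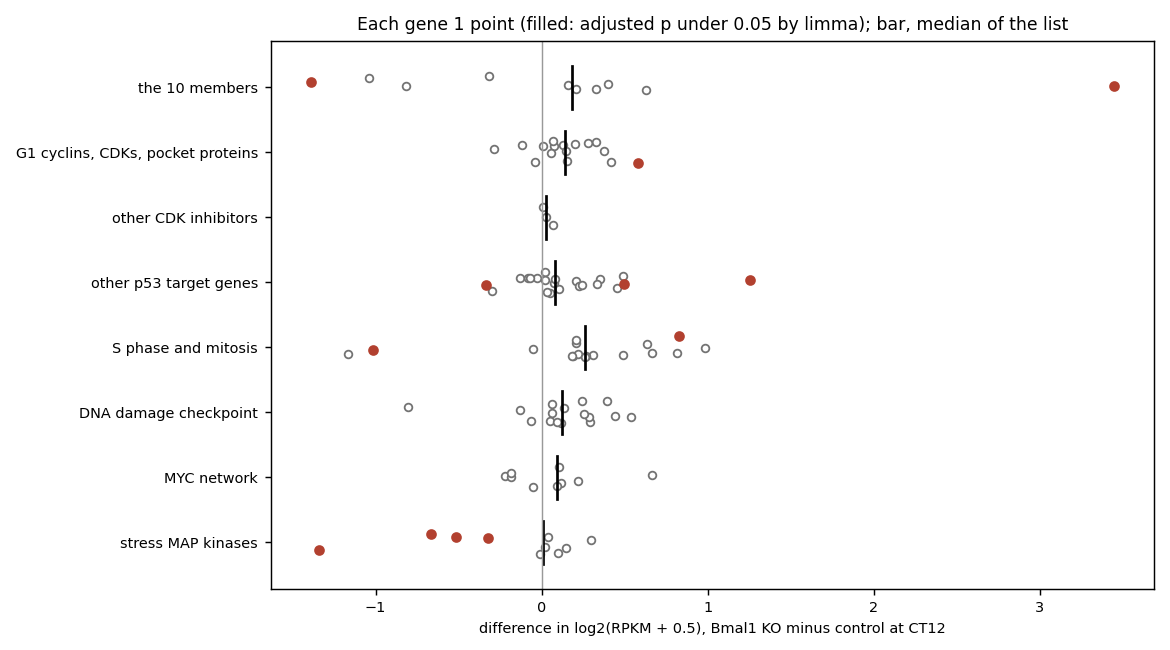
Difference between Bmal1 knockout and control livers at CT12 in log2(RPKM + 0.5), 1 point for each gene tested, with the 10 members above and 7 lists of related genes below; filled points passed an adjusted p under 0.05 by limma and the bar is the median of the list. *Cdkn1a* at 3.45 lies to the right of every gene of the 7 lists, the next being *Ddit4* at 1.25.

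Between CT12 and CT0 in the controls of the Bmal1 experiment, the p53 target *Bbc3*, which encodes the death protein PUMA, fell by 1.14 ± 0.15 and *Plk2* by 0.69 ± 0.20, while none of 22 such genes rose. *Tk1* rose by 0.75 ± 0.17 and the checkpoint gene *Rad9* fell by 0.65 ± 0.17. *Map2k3* rose by 0.68 ± 0.10, *Map2k6* by 1.15 ± 0.22 and *Mapk14* by 0.40 ± 0.09, and the immediate-early genes *Klf6* (-0.81 ± 0.16), *Egr1* (-1.57 ± 0.38) and *Nr4a1* (-0.86 ± 0.25) fell. In the knockout livers *Bbc3* fell by 0.91 ± 0.15 and *Aen* rose by 0.64 ± 0.14. Of the 17 glucocorticoid and fasting genes, beside 1.9% of all genes called in knockout livers and 10.8% in controls, 4 rose and 0 fell in knockout livers, with *Pck1* at 2.03 ± 0.23, and 9 rose and 4 fell in controls, with *Fkbp5* at 2.20 ± 0.31, *Tsc22d3* at 1.40 ± 0.23, *Pdk4* at -1.99 ± 0.26 and *Ccng2* at -1.13 ± 0.17. Neutrophil markers fell between the times in both genotypes, 5 of 8 in knockout livers and 6 of 8 in controls. Markers of other cells fell too, *Pdgfrb* (1 of 10 stellate cell markers) in knockout livers, and in controls 2 of 10 stellate cell markers, 2 of 9 endothelial markers, 1 of 4 cholangiocyte markers, 1 of 5 erythroid markers and 1 of 9 hepatocyte markers. Their part in these values was not tested. In the Nr1d1 experiment 1 gene of the 9 lists was called in 1 comparison, *Zbtb16*, which was higher at CT12 than at CT0 by 2.68 ± 0.22 in the livers labelled knockout.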

How the data were processed

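RNA-seq of 20 mouse livers was analysed. RPKM per Ensembl transcript was deposited by the authors, who named TopHat2, Bowtie, bedtools 2.19.1 and build mm9 in the submitters' processing notes. The sources used here do not say what each tool did, nor the annotation, strand setting or read filters. The libraries were made with a TruSeq kit, per the labels' protocols. The 4C files of 6 further livers hold a deposited count of reads per fragment of chromosome 5, and no value of them is used here.

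Tables were joined on 46585 transcripts, and each symbol took its transcript with the highest mean log2 value. Overlapping and antisense genes could share reads. At most 0.0061% of values were identical between any pair of libraries. limma 3.58.1 (lmFit, contrasts.fit, eBayes with trend; R 4.3.3) was fitted to log2(RPKM + 0.5) per experiment, over 4 group means, leaving out genes whose mean RPKM fell under 0.5. Tests were two-sided, with Benjamini-Hochberg adjustment over all genes and calls at an adjusted p under 0.05. The pseudocount understates changes of low genes. The Nr1d1 fit has the replicate number as a block. Its replicate 2 alone is paired-end, per the labels, and libraries of 1 number deviated together from their group means (r 0.82 to 0.88 over 12 pairs). With 2 livers a group these deviations mirror each other, so the pairs of replicate 2 repeat those of replicate 1. With the block, a fit to only 2 Nr1d1 groups can hardly estimate a gene's own spread. Its p-values lean largely on the spread of other genes. In the Bmal1 experiment r was -0.06 to 0.12 over 18 pairs, and no block was used.

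Whole reads were recovered from the steps of RPKM, within a tolerance of 0.05, for 99.4% of genes above 0 in the Bmal1 libraries and 91.5% in the Nr1d1 libraries. edgeR 4.0.16 (quasi-likelihood test) on these reads, which called 1063 genes in Bmal1 knockout livers at CT12, was an alternative. It takes the recovered reads as counts, although they are known only up to the factors given above. Scripts were tested on simulated data. The members and gene lists were chosen with earlier results of these data known. Named were all members and, per comparison and list, at most the 4 called genes of lowest adjusted p. For likeness, the 3 genes best correlated with each member were taken, and 1 of them is not reported here. Promoters are RefSeq windows of GRCm38.p6, used for their letters and their own positions. Other alternatives changed the pseudocount, filter, scaling, transcript choice, samples fitted and the livers left out.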

Additional observations from a re-analysis of the deposited data

Results flagged for a closer look

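The effect of the Bmal1 knockout on *Cdkn1a* differed between the times of day. The difference between knockout and control livers was 3.23 ± 0.58 log2 units larger at CT12 than at CT0 (adjusted p = 0.0188 by limma), with all 3 knockout livers above all 3 controls at CT12 and overlapping groups at CT0. For *Wee1* the same contrast was -2.33 ± 0.32 (adjusted p = 0.00361 by limma), with all 3 knockout livers below the controls at CT12 and all 3 above them at CT0. In the experiment labelled Nr1d1 the same contrast was 3.36 ± 0.93 for *Cdkn1a* and -0.94 ± 0.35 for *Wee1*, and neither was called (adjusted p = 0.964 for each by limma). In the Bmal1 experiment the *Wee1* difference at CT0 by itself was not called (adjusted p = 0.061 by limma). The *Cdkn1a* contrast there lost its call in 3 of the fits that left out 1 liver (adjusted p = 0.0503 to 0.0578 by limma).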

How the results depend on the processing

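Each difference of each member was recomputed under every alternative that could be fitted. Of these values, 1878 counted as unchanged, 32 newly passed, 24 no longer passed and 0 called values turned round. Unchanged values with a test kept their side of the threshold and, where called, their direction. Fits to Nr1d1 livers of a single replicate number have no test. Their values counted as unchanged where they moved by less than the SE of the reported fit, and a further 36 moved by more. Direction was counted for called values alone. *Cdkn1a* and *Wee1* in Bmal1 knockout against control livers at CT12, *Wee1* and *Ccne1* between the times in the controls of that experiment, and the *Wee1* interaction were called under all alternatives fitted. The number of members called in Bmal1 knockout livers at CT0, 1 as reported, was 2 with a pseudocount of 0.1, with quantile normalization and with edgeR. It was 0 without a filter on low values and with the CT0 livers alone. With the replicate number as a block it was 0 as well, and the block changed the number called in no other Bmal1 comparison. Between the times in Bmal1 knockout livers it was 1, and 0 with those livers alone. In the livers labelled Nr1d1 knockout at CT12 it was 0, and 1 with those CT12 livers alone. Between the times in the Nr1d1 controls it was 1, then 0 without a filter, 2 with edgeR, 0 without the replicate block and 4 with the controls alone. Between the times in the livers labelled Nr1d1 knockout it was 0, and 2 with those livers alone. Leaving out 1 liver at a time gave, in the Bmal1 experiment, 0 to 2 members at CT0, 2 to 3 at CT12, 2 to 3 between the times in controls, 0 to 1 in knockout livers and 1 to 2 in the interaction. In the Nr1d1 experiment it gave 0 to 0 at CT0, 0 to 1 at CT12, 0 to 2 between the times in controls, and 0 to 0 both in the livers labelled knockout and in the interaction. The cause of these shifts was not tested. Over all genes, 185 were called in Bmal1 knockout livers at CT0, 116 without a filter and 108 with those livers alone. Between the times in Bmal1 knockout livers 217 were called, 364 by edgeR and 25 with those livers alone. Leaving out 1 liver gave 82 to 209 genes in Bmal1 knockout livers at CT0 and 81 to 139 in the interaction, both lowest without replicate 2 of the controls at CT0. It gave 713 to 1242 at CT12 (1107 as reported) and 633 to 1370 between the times in controls (1239 as reported), both lowest without replicate 3 of the controls at CT12, and 48 to 232 between the times in knockout livers, lowest without their replicate 3 at CT0. Counts over all genes in the Nr1d1 experiment ran from 0 to 171 over the alternatives. The median of all genes moved by over 0.1 with the scaling in 2 comparisons, the times in livers labelled Nr1d1 knockout (0.16, against 0.03 with TMM, 0.03 with edgeR and -0.02 with quantile normalization) and the Nr1d1 interaction (0.09, against -0.02 with quantile normalization). *Ccne1* and *Gadd45b* had low reads.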

Other observations

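The members did not move as a block over the 12 Bmal1 libraries. The largest Pearson correlations of log2 levels among them were -0.75 between *Gadd45b* and *Gadd45g*, 0.74 between *Wee1* and *Ccne1* and 0.68 between *Myc* and *Gadd45g*, given as descriptions of libraries that share 4 groups.

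The genes most like the other members over the same libraries were *Clic4* for *Cdkn1a* (r = 0.91), *Naa50* and *Klf13* for *Ccne1* (both 0.95), *Higd2a* for *Ccne2* (0.88), and *Slc3a2* for *Ccnd1* (0.88). They were *Gga2* for *Myc* (0.86), *Mgat4b* for *Mdm2* (0.85), *Irf2* for *Gadd45a* (0.90), *Bod1* for *Gadd45b* (0.89) and *Phlda1* for *Gadd45g* (0.89).

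Other *Cdkn1a* transcripts gave the same picture at CT12. The second best expressed one had 11.5, 8.58 and 11.5 RPKM in Bmal1 knockout livers and 0.332, 0.728 and 0.598 RPKM in controls. In the livers labelled Nr1d1 knockout it had 6.43 and 23.9 RPKM at CT12, against 0.287 and 1.64 RPKM in controls.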
